A study of Rattus norvegicus with 10 samples.

Results

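The retinoid storage and receptor genes described here are Lrat, Rbp4, Aldh1a1, Dhrs3, Rara, Rarb, Rarg, Rxra and Rxrb, 9 of the 14217 genes that had a probe set with a single gene symbol. They were listed by function, and each was read from the probe set that varied most over the 10 arrays, which for 8 of the 9 was the only one. The samples were whole livers of 10 male Wistar rats in which inhaled CCl4 had induced cirrhosis. Of these rats, 5 received CVX-060, an inhibitor of the vessel-destabilizing ligand Ang2, by tail vein at 10 mg/kg in saline once a week for 4 weeks, and 5 received vehicle on a weekly schedule. All 10 rats were cirrhotic, healthy liver was not analysed here, and the ages of the rats are not given in the sources used here. RNA of each rat was hybridized to its own Affymetrix rat 3′ expression array, and all values are log2 signals as deposited, so that a difference of 1 is a doubling of signal. A log2 signal on such an array depends on how strongly its probes bind, so levels of the members were not ranked against each other. The comparisons with background and with the top of the scale set different probe sets together and share this limit.

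The liver holds most of the body's vitamin A as retinyl esters in the lipid droplets of hepatic stellate cells. The stellate cell enzyme LRAT esterifies retinol, and RBP4, secreted by hepatocytes, carries retinol into the blood. Retinol is oxidized to retinal and on to retinoic acid, the second step by ALDH1A enzymes, while DHRS3 reduces retinal back to retinol. Retinoic acid binds the nuclear receptors RARα, RARβ and RARγ, which act on DNA as heterodimers with an RXR, and Rarb and the retinoic acid hydroxylase gene Cyp26a1 are well known targets of these receptors. Stellate cells lose their retinyl esters when they turn into the matrix-producing myofibroblasts of a fibrotic liver.

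An annotated start of Rarb is shown because, among the members, only its window held a retinoic acid response element of the kinds searched for. A start of Cyp26a1 is shown because its window held the same kind. Each window runs from 250 bases before to 50 bases after an annotated transcription start in RefSeq (build GRCr8), and capitals mark the 2 repeats of the element as read on the gene's strand. The Rarb window lies at chr15:11336142-11336441, plus strand, and the Cyp26a1 window at chr1:244883572-244883871, plus strand. The annotated Rarb gene runs from 10837252 to 11482037, so its window lies inside the gene and not at its outermost start, which was not searched.
Rarb: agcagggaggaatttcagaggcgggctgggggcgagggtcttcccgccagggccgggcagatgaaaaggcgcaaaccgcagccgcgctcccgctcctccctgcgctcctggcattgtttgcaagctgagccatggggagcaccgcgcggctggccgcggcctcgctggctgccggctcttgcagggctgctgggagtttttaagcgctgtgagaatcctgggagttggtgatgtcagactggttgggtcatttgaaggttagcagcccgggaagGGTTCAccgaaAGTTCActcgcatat
Cyp26a1: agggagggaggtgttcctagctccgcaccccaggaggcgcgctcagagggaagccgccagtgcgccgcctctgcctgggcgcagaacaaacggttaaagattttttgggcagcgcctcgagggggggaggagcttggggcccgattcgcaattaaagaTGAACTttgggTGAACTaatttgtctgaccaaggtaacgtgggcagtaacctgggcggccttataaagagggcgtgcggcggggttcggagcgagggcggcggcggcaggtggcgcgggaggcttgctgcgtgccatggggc
The elements are of the DR5 type, a direct repeat of the core motif of nuclear receptors (AGGTCA, or AGTTCA with T, each also with G for the leading A) with 5 bases in between. The element of Rarb spans positions 25 to 41 counted from the start shown. That of Cyp26a1, which reads as a direct repeat on the other strand, spans positions -92 to -76. All 9 members had a window in the table, 10 windows in all since Rarg had 2, and both strands were searched. DR5 was found in 1 of the 10 windows and in 0.382% of all 33469 windows, DR2 (2 bases between the repeats) in 0 of 10 and 0.17%, and DR1 (1 base) in 0 of 10 and 0.233%. Of the 68 further genes of retinoid handling described below, 52 had a window, and among these only Cyp26a1 held a match. The matches did not overlap each other. They describe letters in a window, and no binding was measured in these livers.

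The tissue label and the arrays were checked first. All 7 measured hepatocyte markers, among them Alb and Ttr, lay above background in all 10 rats, where background is the level that 95% of 20 probe sets stay under on that array, all for chemosensory receptors of the nose (olfactory, vomeronasal and trace amine), 5.34 to 6.06 over the arrays. On the first principal component of all genes, CVX-060 rat 5 lay at 35.5 and vehicle rat 2 at 34.5, apart from the others, and the other 8 rats lay between -26.2 and 9.74. The same 2 rats carried the female-type liver gene Cyp2c12 at 12.02 (CVX-060 rat 5) and 12.71 (vehicle rat 2), against 7.11 to 9.79 in the others, and the lowest signals of the male-type gene Cyp2c11, 11.42 in CVX-060 rat 5 and 8.99 in vehicle rat 2. Of the 5 measured male-type genes, only Cyp2c11 is given here. Of the 3 other listed female-type genes, A1bg and Sult2a1 lay below background in all rats, and Sult2a6 was highest in vehicle rat 2 at 13.13 but within the range of the others in CVX-060 rat 5, at 12.31. The Y-linked genes Eif2s3y and Uty lay above background in every rat, as the male sex stated in the study's methods requires. The clock gene Bmal1 also varied between rats, with 8.38, 8.75, 8.17, 5.75 and 5.21 in CVX-060 rats 1 to 5 and 7.90, 7.95, 5.13, 4.87 and 4.88 in vehicle rats 1 to 5. Of the 5 listed clock genes, Bmal1 and Clock had a higher mean with CVX-060 (differences 1.11 and 0.32). Per2, Dbp and Nr1d1 had a lower one (-0.59, -1.25 and -0.84). For Nr1d1, above background in 6 of the 10 rats, the groups did not overlap (exact permutation p = 0.0079, limma adjusted p = 0.999973). The other clock genes had exact permutation p of 0.2143 to 0.3968. The cause of these differences was not tested. Since CVX-060 rat 5 and vehicle rat 2 lay apart, differences of the members are also given without these rats where that turns the direction.

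The mean log2 signals of the members differed between CVX-060 and vehicle by -0.15 to 0.14, and no difference exceeded the spread between rats. Of the 9 genes, 3 had a higher mean with CVX-060 (Lrat, Rara and Rarg) and 6 a lower one, where 52.6% of all genes had a higher mean. The median difference of the members was -0.03, and that of all genes 0.01. By limma, 0 of the 9 genes reached an adjusted p of 0.05, as did 0% of all genes, and 0 had an unadjusted p under 0.05, which 2.44% of all genes had. The values of both groups overlapped for each of the 9 genes, whereas 0.485% of all genes had groups that did not overlap. The lowest exact permutation p (two-sided, over all splits of the rats into 5 and 5, smallest possible p 0.0079) was 0.2778, that of Rarg. Of the 90 values, 80 lay above background, and 8 of the 9 genes did so in all 10 rats.

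**Figure D1:**
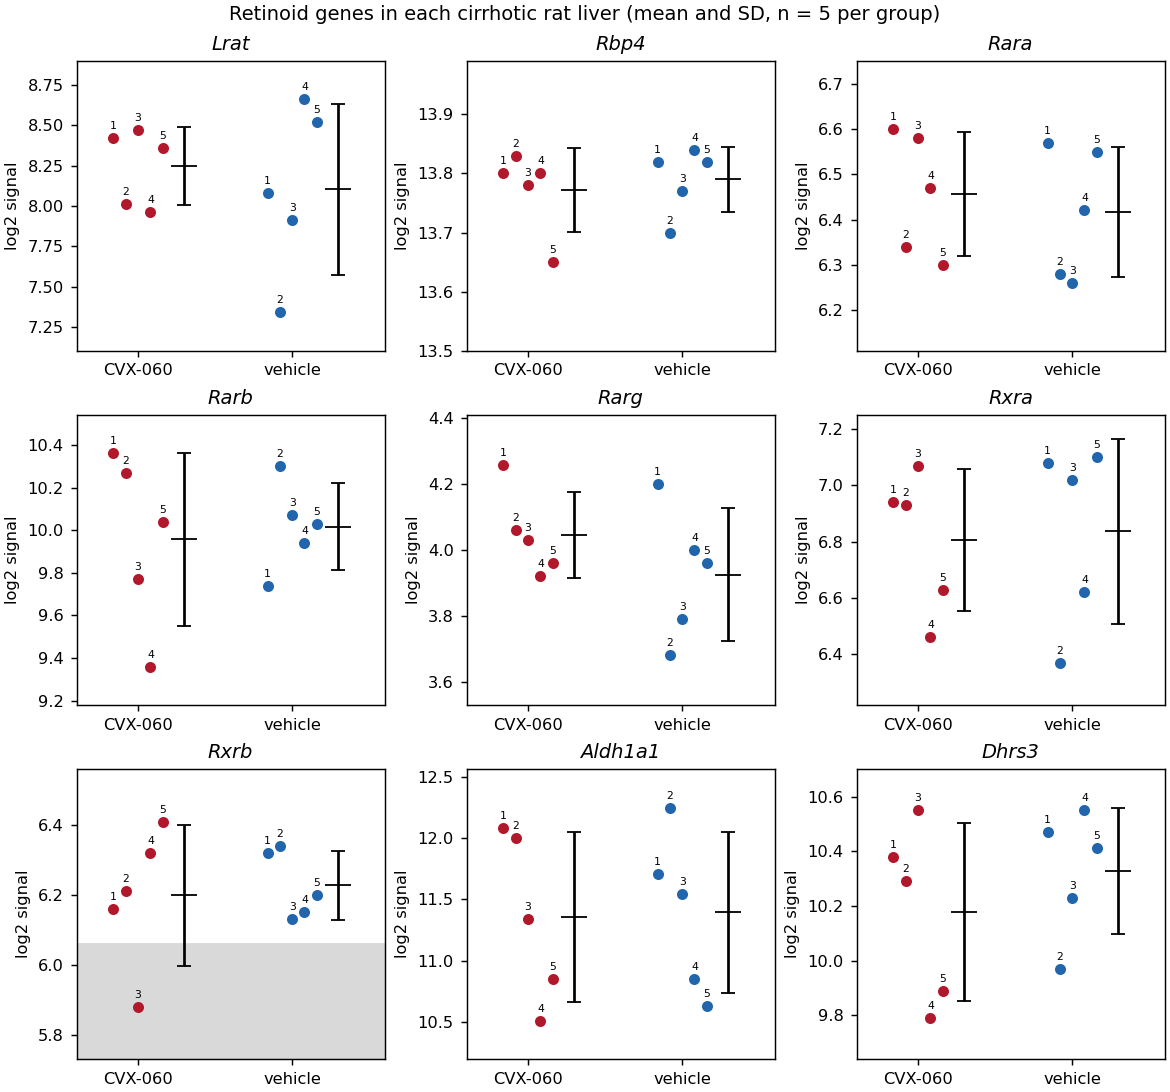
Log2 signal of the 9 retinoid genes (vertical axes, each with its own range) in 5 CVX-060 rats (left, red) and 5 vehicle rats (right, blue), numbered by rat, and group means with SD bars beside the points. The grey band, visible for Rxrb, is the range of the background level over the arrays, 5.34 to 6.06. The groups overlap for every gene.

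Lrat, the esterifying enzyme of stellate cells, had log2 signals of 8.42, 8.01, 8.47, 7.96 and 8.36 in CVX-060 rats 1 to 5, against 8.08, 7.34, 7.91, 8.66 and 8.52 in vehicle rats 1 to 5. The CVX-060 rats lay inside the range of the vehicle rats, whose rat 2 was the lowest of all and whose rat 4 the highest. The means were 8.24 ± 0.24 with CVX-060 and 8.10 ± 0.53 with vehicle (SD, n = 5 rats each), a difference of 0.14 with a 95% interval in limma from -0.37 to 0.66 (exact permutation p = 0.6508). Without vehicle rat 2 the difference was -0.05, and without CVX-060 rat 5 and vehicle rat 2 it was -0.08, so that its direction rested on vehicle rat 2. In whole liver, fewer cells of a type and less RNA per cell cannot be told apart.

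Other genes of quiescent stellate cells were read beside Lrat. Of 10 listed markers, Lrat included, 8 had a value and 4 lay above background in all 10 rats (Lrat, Des, Hand2 and Ecm1). Reln lay above it in 7 of 10, and Gfap, Ngfr and Hgf in 0 of 10. The mean log2 signal of the 8 ranged from 6.09 to 6.33 over the CVX-060 rats and from 5.87 to 6.35 over the vehicle rats, and 6 of the 8 had a higher mean with CVX-060 (median difference 0.03). All 8 listed genes of activated stellate cells and myofibroblasts had a value and a higher mean with CVX-060, by 0.01 for Tagln to 0.33 for Pdgfrb, and 0 of them had an exact permutation p under 0.05. Of the 8, 5 lay above background in all 10 rats, while Pdgfrb did so in 8, Acta2 in 7 and Lox in 4. The direction was not shared by all probe sets, since the other 2 of Pdgfrb gave -0.03 each and the other of Lox gave -0.02. Their mean log2 signal ranged from 7.27 to 8.33 with CVX-060 and from 6.91 to 8.39 with vehicle. Of the sinusoidal endothelial cells, the neighbours of stellate cells, all 5 measured markers had a higher mean with CVX-060 (median difference 0.35), and the hyaluronan receptor gene Lyve1 differed by 0.44 (exact permutation p = 0.0159, not past an adjusted p of 0.05 in limma), while Kdr differed by 0.41 on its most variable probe set and by 0.02 on the other. Their mean log2 signal ranged from 9.08 to 9.61 with CVX-060 and from 8.60 to 9.28 with vehicle. All 6 measured markers of Kupffer cells and macrophages also had a higher mean with CVX-060 (median difference 0.25, lowest exact permutation p 0.0794 for Cd163), and their mean log2 signal ranged from 9.17 to 10.01 with CVX-060 and from 9.14 to 9.56 with vehicle. The part of these cells in the Lrat values was not tested.

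Rbp4, the plasma retinol carrier, was the steadiest member. It read 13.80, 13.83, 13.78, 13.80 and 13.65 in CVX-060 rats 1 to 5 and 13.82, 13.70, 13.77, 13.84 and 13.82 in vehicle rats 1 to 5. CVX-060 rat 5 and vehicle rat 2 were the lowest of their groups, and the remaining 8 rats lay within 0.1 of each other. The difference was -0.02 (95% interval -0.15 to 0.12, exact permutation p = 0.6190), the narrowest interval among the members, and without CVX-060 rat 5 it was 0.01. Only 1.34% of all genes varied less over the 10 rats. Its signal lay near the top of the scale, since the highest value on each array was 14.77 to 14.81. Whether compression of signal at that level narrowed its spread was not tested.

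Aldh1a1, a retinal dehydrogenase that is abundant in liver, was the most variable member. Its log2 signals were 12.08, 12.00, 11.34, 10.51 and 10.85 in CVX-060 rats 1 to 5, against 11.71, 12.25, 11.54, 10.85 and 10.63 in vehicle rats 1 to 5. Each group thus held rats near 12 and rats near 10.5, and the highest rat exceeded the lowest by 3.34-fold. The means were 11.36 ± 0.69 with CVX-060 and 11.40 ± 0.66 with vehicle (SD, n = 5 each), a difference of -0.04 with the widest interval of the members, -0.87 to 0.79 (exact permutation p = 0.9365). A change of up to 1.73-fold upward or down to 0.546-fold therefore lay inside the interval. The difference was 0.17 without CVX-060 rat 4, 0.09 without CVX-060 rat 5, 0.04 without vehicle rat 1 and 0.17 without vehicle rat 2, and 0.30 without CVX-060 rat 5 and vehicle rat 2 together. With Bmal1 as a covariate (its own mean was 1.11 higher with CVX-060) the difference of Aldh1a1 was -0.44, not past an adjusted p of 0.05 in limma. Of all genes, 96.4% varied less over the 10 rats. Aldh1a7, a close relative in rodents, had no value of its own here, and whether its transcript adds to this signal was not tested.

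Dhrs3, which returns retinal to retinol, read 10.38, 10.29, 10.55, 9.79 and 9.89 in CVX-060 rats 1 to 5 and 10.47, 9.97, 10.23, 10.55 and 10.41 in vehicle rats 1 to 5. CVX-060 rats 4 and 5 and vehicle rat 2 were the lowest. The difference of -0.15 was the largest in size among the members, with an interval from -0.51 to 0.21 (exact permutation p = 0.4048), and was -0.05 without CVX-060 rat 4.

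Among the receptors, Rara lay between 6.26 and 6.60 in all rats. It read 6.60, 6.34, 6.58, 6.47 and 6.30 in CVX-060 rats 1 to 5 and 6.57, 6.28, 6.26, 6.42 and 6.55 in vehicle rats 1 to 5. Every rat exceeded the background of its own array by at least 0.25, and the groups overlapped almost fully. The difference was 0.04 (95% interval -0.16 to 0.25, exact permutation p = 0.6587), and 0.00152 without vehicle rat 3.

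Rarb, itself a target of the receptors, read 10.36, 10.27, 9.77, 9.36 and 10.04 in CVX-060 rats 1 to 5 and 9.74, 10.30, 10.07, 9.94 and 10.03 in vehicle rats 1 to 5. Both the highest and the lowest rat belonged to the CVX-060 group, rats 1 and 4, and the SD was 0.41 with CVX-060 and 0.20 with vehicle. Its signal exceeded background by 3.47 to 4.70 on every array. The difference was -0.06 (95% interval -0.47 to 0.35, exact permutation p = 0.8016), or 0.09 without CVX-060 rat 4 and 0.01 without vehicle rat 2.

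Rarg was the one member below background. Its signals were 4.26, 4.06, 4.03, 3.92 and 3.96 in CVX-060 rats 1 to 5 and 4.20, 3.68, 3.79, 4.00 and 3.96 in vehicle rats 1 to 5, and in all 10 rats they lay under both the 95th and the 90th percentile of background. Its difference of 0.12 (95% interval -0.12 to 0.36, exact permutation p = 0.2778) is therefore a difference of signals at background. A second probe set of Rarg lay at 5.07 to 5.28 in CVX-060 rats and 4.95 to 5.34 in vehicle rats, below the 95th percentile in all 10 rats and above the 90th in all 10, with a difference of 0.03 (exact permutation p = 0.6667). Absence of the transcript cannot be read from such a signal.

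Rxra, the main RXR of hepatocytes, read 6.94, 6.93, 7.07, 6.46 and 6.63 in CVX-060 rats 1 to 5, against 7.08, 6.37, 7.02, 6.62 and 7.10 in vehicle rats 1 to 5. In each group some rats lay near 7 and others at 6.37 to 6.63. The difference was -0.03 (95% interval -0.40 to 0.34, exact permutation p = 0.8333), and it changed sign without any one of 5 rats, to between 0.01 without CVX-060 rat 5 and 0.06 without CVX-060 rat 4, with 0.03, 0.01 and 0.04 without vehicle rats 1, 3 and 5.

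Rxrb, the broadly used second RXR, read 6.16, 6.21, 5.88, 6.32 and 6.41 in CVX-060 rats 1 to 5 and 6.32, 6.34, 6.13, 6.15 and 6.20 in vehicle rats 1 to 5. CVX-060 rat 3 was the lowest and exceeded the background of its own array by 0.034. The difference was -0.03 (95% interval -0.25 to 0.20, exact permutation p = 0.8413), and 0.05 without CVX-060 rat 3.

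**Figure D2:**
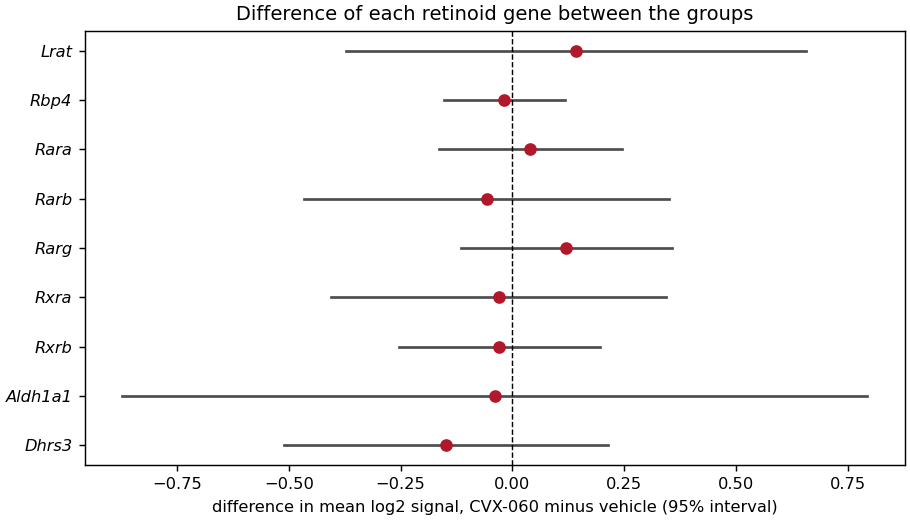
Mean of the CVX-060 rats minus mean of the vehicle rats in log2 signal (horizontal axis), with its 95% interval from limma, for each of the 9 genes. Every interval includes 0, the narrowest being that of Rbp4 (-0.15 to 0.12) and the widest that of Aldh1a1 (-0.87 to 0.79).

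The rats differed more from each other than the groups did, and no rat was the highest or the lowest in all 9 genes. Vehicle rat 2 had the lowest Lrat, Rarg and Rxra of all rats and the highest Aldh1a1. CVX-060 rat 4 had the lowest Rarb, Aldh1a1 and Dhrs3. CVX-060 rat 1 had the highest Rara, Rarb and Rarg. Over the 36 pairs of members, 0 correlations across the 10 rats passed after Benjamini-Hochberg adjustment (lowest adjusted p 0.284 for Pearson's r, 0.276 for Spearman's rho). By r, the strongest were Rara with Rarg (r = 0.73, permutation p = 0.0136, rho = 0.72, permutation p = 0.0237) and Rxra with Dhrs3 (r = 0.71, permutation p = 0.0237, rho = 0.59, permutation p = 0.0816). Rxrb ran opposite to Dhrs3 (r = -0.69, permutation p = 0.0232, rho = -0.70, permutation p = 0.0303). By rho, Lrat with Dhrs3 came after Rara with Rarg (rho = 0.71, permutation p = 0.0263, r = 0.58, permutation p = 0.0799), and its r was 0.39 without vehicle rats 2 and 4. Without the 2 rats farthest from the median of the first gene, the r of the other 3 pairs were 0.51, 0.41 and -0.57, so that the relations rested in part on those rats, and Rarg lay at background.

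**Figure D3:**
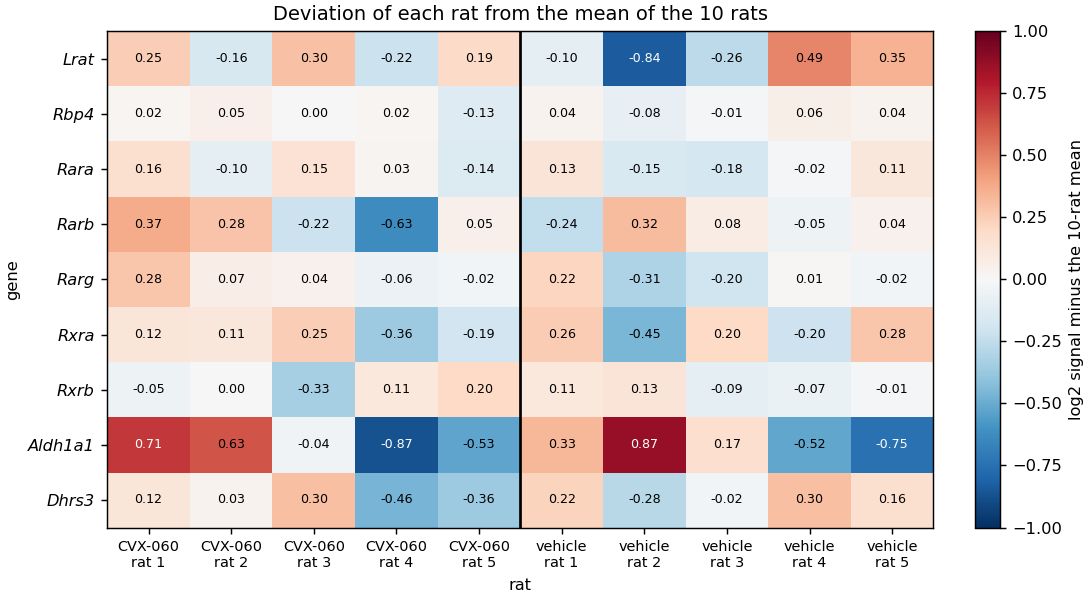
Log2 signal of each gene (rows) in each rat (columns, CVX-060 rats left of the line and vehicle rats right of it) minus the mean of the 10 rats, with the value printed in each cell. Aldh1a1 ranges from -0.87 in CVX-060 rat 4 to 0.87 in vehicle rat 2, and Rbp4 stays between -0.13 and 0.06.

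The members were also set against Col1a1 and Acta2, the collagen and actin genes of myofibroblasts, and against Bmal1, 27 relations in all, of which 0 passed after adjustment (lowest adjusted p 0.257 for r, 0.335 for rho). Col1a1 ran opposite to Rara (r = -0.69, permutation p = 0.0297, rho = -0.55, permutation p = 0.1030), Rbp4 (r = -0.68, permutation p = 0.0272, rho = -0.59, permutation p = 0.0789) and Rxra (r = -0.67, permutation p = 0.0381, rho = -0.67, permutation p = 0.0391). Without vehicle rats 1 and 2, the farthest from the median of Col1a1, these r were -0.56, -0.61 and -0.45. Rarb ran with Col1a1 (r = 0.55, permutation p = 0.0981, rho = 0.72, permutation p = 0.0227), or r = 0.39 without those rats. Lrat had r = -0.35 with Col1a1 (permutation p = 0.3310, rho = -0.36, permutation p = 0.3130) and 0.17 with Acta2 (permutation p = 0.6350, rho = 0.21, permutation p = 0.5580), which lay above background in only 7 of the 10 rats. Bmal1 fell into 2 separate clusters of 5 rats, so that a correlation with it over all rats largely reflects the difference between the clusters. The largest r of the 27 was that of Bmal1 with Aldh1a1 (r = 0.80, permutation p = 0.0138, rho = 0.65, permutation p = 0.0496), and it did not pass after adjustment either. Without vehicle rats 4 and 5, the farthest from the median of Bmal1, this r was 0.72. In the rats with Bmal1 at 7.90 to 8.75, Aldh1a1 read 12.08, 12.00 and 11.34 with CVX-060 and 11.71 and 12.25 with vehicle. In those with Bmal1 at 4.87 to 5.75, it read 10.51 and 10.85 with CVX-060 and 11.54, 10.85 and 10.63 with vehicle. Whether the clock has a part in the spread of Aldh1a1 was not tested.

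Since Rarb and Cyp26a1 both carried a DR5 element, Cyp26a1 was set against each member, a family of 9 relations chosen after the values were seen. Cyp26a1 read 9.04, 8.77, 7.10, 7.14 and 6.30 in CVX-060 rats 1 to 5 and 7.28, 8.42, 8.62, 7.87 and 7.24 in vehicle rats 1 to 5, above background in all. CVX-060 rats 1 and 2 were the highest and CVX-060 rat 5 the lowest, and the difference between the groups was -0.22 (95% interval -1.38 to 0.94, exact permutation p = 0.7222). Across the 10 rats, Cyp26a1 ran with Aldh1a1 (r = 0.73, permutation p = 0.0224, rho = 0.73, permutation p = 0.0201) and with Rarb (r = 0.64, permutation p = 0.0418, rho = 0.70, permutation p = 0.0309), and after adjustment over the family the lowest p was 0.188 for r and 0.139 for rho, so that neither passed. Without CVX-060 rats 1 and 5, the farthest from the median of Cyp26a1, r was 0.66 for Aldh1a1 and 0.78 for Rarb. With deviations from the group means, r was 0.73 and 0.64. Rarb and Aldh1a1 had r = 0.67 with each other (permutation p = 0.0315, rho = 0.70, permutation p = 0.0307), or 0.43 without CVX-060 rats 1 and 4.

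**Figure D4:**
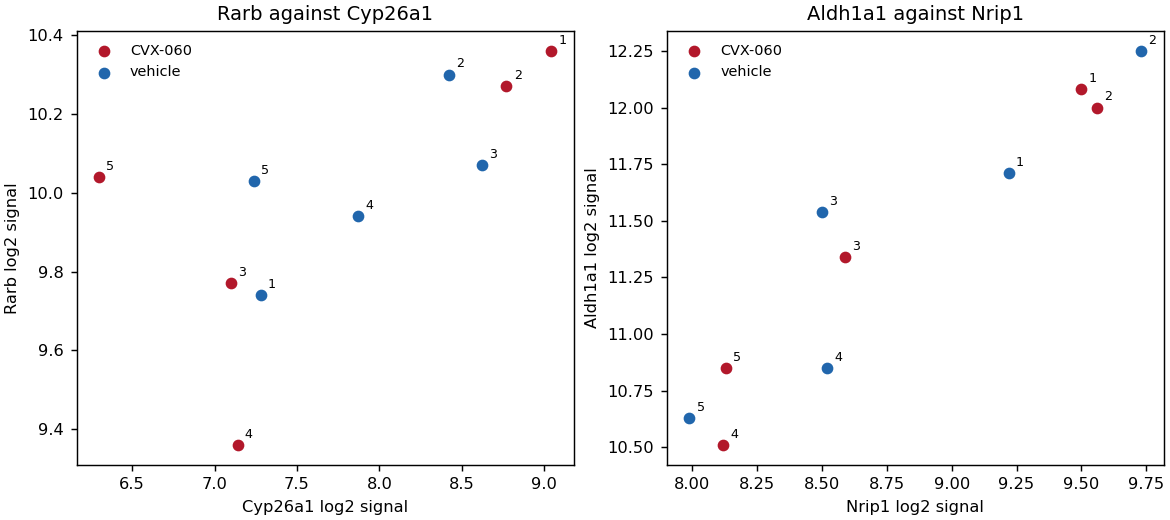
Left, log2 signal of Rarb (vertical axis) against Cyp26a1 (horizontal axis), and right, of Aldh1a1 against Nrip1, in CVX-060 rats (red) and vehicle rats (blue), numbered by rat. Both ends of the Cyp26a1 axis are CVX-060 rats (9.04 in rat 1 and 6.30 in rat 5), with the vehicle rats between 7.24 and 8.62, and CVX-060 rat 4 is the lowest in Rarb (9.36) and in Aldh1a1 (10.51).

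The genes whose pattern over the 10 rats was most like that of a member were sought among the 7526 genes above background in all rats, as a description, since they were picked for the size of r. Nearest to Aldh1a1 were Rora, the gene of a nuclear receptor that acts on Bmal1 (r = 0.96), Nrip1, the gene of a nuclear receptor co-repressor that is induced by retinoic acid (r = 0.95), and Rnf125 (r = 0.95). Without the 2 rats farthest from the median of Aldh1a1, these r were 0.95, 0.93 and 0.91. Nrip1 read 9.50, 9.56, 8.59, 8.12 and 8.13 in CVX-060 rats 1 to 5 and 9.22, 9.73, 8.50, 8.52 and 7.99 in vehicle rats 1 to 5, highest in vehicle rat 2 as Aldh1a1 was. Nearest to Dhrs3 were Tmem160 (r = 0.97) and the glutathione transferase genes Gstt1 and Gstp3 (r = 0.96 each). Rbp4 was nearest to Apoc2, an apolipoprotein gene of hepatocytes (r = 0.96), and Sord, sorbitol dehydrogenase (r = 0.96), and without CVX-060 rat 5 and vehicle rat 2 these r were 0.80 each. Rxra was nearest to Prkaa2, a catalytic subunit gene of AMP kinase (r = 0.96), Rxrb to Krcc1 (r = 0.96), Rarb to Zbtb44 (r = 0.96), Rara to the respiratory chain gene Cox5b (r = 0.91) and Lrat to Plekha4 (r = 0.91, or 0.78 without vehicle rats 2 and 4).

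Around the members, 68 further genes of retinoid handling were listed, of which 60 had a value and 39 lay above background in all 10 rats. None of the 60 reached an adjusted p of 0.05 in limma, where 0% of all genes did. An unadjusted p under 0.05 was reached by 0 of them, and by 2.44% of all genes. Their means were higher with CVX-060 in 27 and lower in 33, with a median difference of -0.02, where 52.6% of all genes had a higher mean. In binding and transport, 5 of 9 had a higher mean, among them Fabp5 at 0.02, while Ttr, the plasma partner of RBP4, differed by -0.01 and Stra6l, a hepatic RBP4 receptor gene in mice, by -0.06. In retinyl ester storage and hydrolysis, 6 of 10 had a higher mean. Lipoprotein lipase, Lpl, averaged 9.09 ± 0.52 with CVX-060 and 8.62 ± 1.12 with vehicle (SD, n = 5 each), a difference of 0.47 (exact permutation p = 0.4286), and the hydrolase gene Lipa differed by 0.15. In the list of redox enzymes and carotene cleavage, 8 of 15 had a higher mean. The retinol dehydrogenase genes Rdh5 and Rdh10 differed by -0.26 and -0.27 (exact permutation p = 0.1190 and 0.2619), but a second probe set gave -0.03 for Rdh5 and -0.02 for Rdh10.

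In the synthesis and breakdown of retinoic acid, 4 of 5 measured genes had a higher mean, by up to 0.54 for the hydroxylase gene Cyp26b1 (exact permutation p = 0.3810), whose second probe set gave 0.05. Aldh1a3 differed by 0.12 and Aldh1a2, below background in all rats, by 0.05. Among RXR and its heterodimer partners, 2 of 12 had a higher mean, Ppard by 0.27 and Thra by 0.15. A second probe set gave -0.01 for Ppard, and of the other 2 of Thra 1 gave -0.01 and 1 gave 0.06. Thrb, a thyroid hormone receptor gene, averaged 6.15 ± 0.12 with CVX-060 and 6.44 ± 0.36 with vehicle, a difference of -0.30 (exact permutation p = 0.1270), and its other probe sets gave -0.28, -0.15 and -0.02. The bile acid receptor gene Nr1h4 differed by -0.23 and the xenobiotic receptor gene Nr1i2 by -0.15. Of the co-regulators 1 of 5 had a higher mean, and of the further retinoic acid target genes 1 of 4, Rarres1 by 0.15. The median differences of the 7 lists lay between -0.04 and 0.08.

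**Figure D5:**
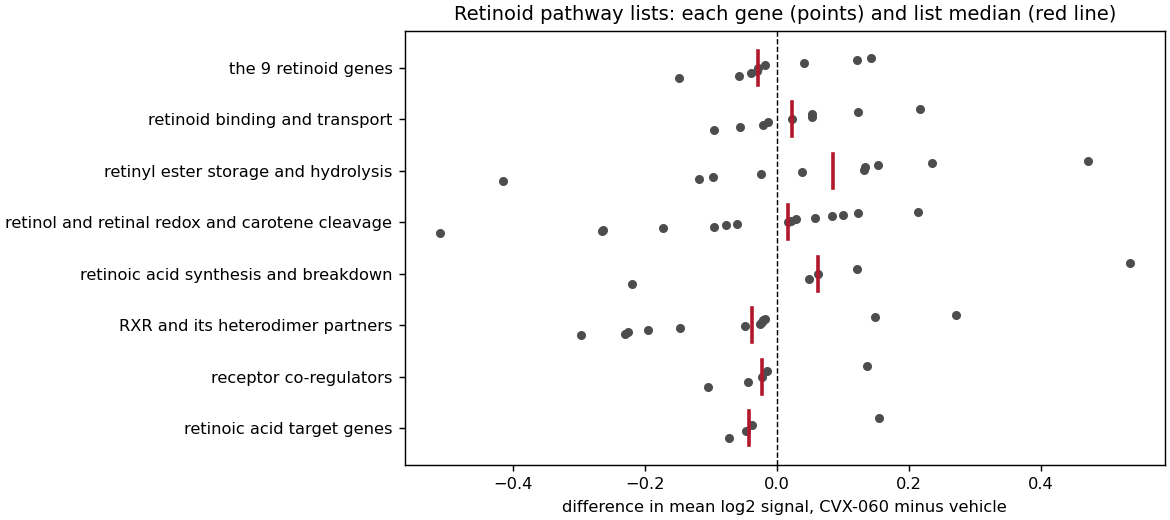
Mean of the CVX-060 rats minus mean of the vehicle rats in log2 signal (horizontal axis), of the 9 retinoid genes and of each measured gene of 7 further lists (points), with the median of each list as a red line. The medians lie between -0.04 and 0.08, and single genes reach -0.51 (Bco1) and 0.54 (Cyp26b1).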

How the data were processed

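Gene expression was measured in whole livers of 10 cirrhotic rats, with an array for each rat. The authors deposited log2 signals per probe set that were already normalized between arrays (array medians 5.52 to 5.57), with R 3.4.0 and its packages limma 3.38.2 and affy 1.56.0 listed in the submitters' processing notes. The study names frozen-RMA as its general pipeline and MAS5 detection calls for these rat arrays. Which background correction and summary gave the deposited values is not given in the sources used here, and a floor or compression of signal by them would reduce differences of dim and bright genes. After quality control the study kept 2 replicates of each treatment, not named in the sources used here, whereas all 10 rats were used here. Probe sets with 1 symbol in the platform annotation were kept, 20826 of 31099 (14217 genes), so that 9780 without a symbol, 436 with more than 1 and 57 controls were dropped.

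Each gene was represented by its most variable probe set, a choice that the study states for its general pipeline and not for these arrays. Groups were taken from the treatment label. In the source label the digits after CCl and CVX count up from rat to rat, which was read as a spreadsheet fill, since the treatment label names only CVX-060. The groups were compared in limma 3.58.1 (R 4.3.3; lmFit, eBayes), and p-values of all genes were adjusted together by Benjamini-Hochberg. An exact permutation test, two-sided, was added for each member and each gene of the further lists, the cell type markers and the clock genes. Genes named only for their r to a member were not tested. Correlations used 100000 permutations. Tables and plots were made in Python 3.11.15 (scipy 1.17.1, numpy 2.4.6, statsmodels 0.14.6, pandas 2.3.3, matplotlib 3.10.9). Simulated data with known differences and noise independent between genes were used to test the limma step only. The exact permutation test was compared with that of scipy on random values. The number of arrays limits the precision.

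Named genes were the 9 members, genes of the further lists above background in all 10 rats or among the 4 smallest p of their list, and the 3 genes of highest r to each member. The members and lists were chosen with earlier results of these data known. The correlations with Cyp26a1 were added after the data were seen. Alternatives concerned the probe sets (that with the highest mean, or all of them), dim genes (removal of those under the 40th percentile), scaling (medians at 0, or a further quantile normalization), the model (weights per array, a trended robust prior, a block for the replicate number, a Bmal1 covariate), the rats (1 left out at a time, or CVX-060 rat 5 and vehicle rat 2 together) and the background level (99th or 90th percentile).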

Additional observations from a re-analysis of the deposited data

Results flagged for a closer look

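The highest or lowest rat of a group of 5 was asked to lie apart from the other 4 by more than Dixon's 95% critical value, 0.71 of the group's range, for 64 genes in both groups. Of 128 such groups 9 were flagged, where chance flags about 5%. Among the members this was Rbp4 in CVX-060 rat 5, at 13.65 where the other CVX-060 rats lay at 13.78 to 13.83. Vehicle rat 2 lay apart in Rbp7, a cellular retinol-binding protein gene, at 7.37 (others 4.97 to 5.26), in Dgat1 at 9.73 (others 9.23 to 9.37) and in Rdh7 at 11.55 (others 12.27 to 12.53). Vehicle rat 1 lay apart in Nr1h4 at 11.09 (others 10.33 to 10.52), vehicle rat 3 in Lipe at 5.90 (others 6.50 to 6.66) and vehicle rat 5 in Nr1i2 at 10.20 (others 9.64 to 9.74). CVX-060 rat 4 lay apart in Tgm2 at 9.29 (others 9.74 to 9.90), and CVX-060 rat 2 in Aldh1a2 at 4.76 (others 5.14 to 5.22), below background. Of these 9 values, 4 belong to CVX-060 rat 5 and vehicle rat 2, which stood apart over all genes, and the part of that in these values was not tested.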

How the results depend on the processing

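The difference of each member was recomputed under 20 alternatives, 179 values in all, since Rarg was too dim for the filter at the 40th percentile. In 161 the direction was kept and in 18 it was turned, and 0 passed the threshold (lowest p 0.0693 in limma, that of Aldh1a1 with Bmal1 as a covariate, and lowest adjusted p 0.854). Some alternatives cannot change a member's difference, so the directions kept under them say nothing about its stability. These are the test of every probe set, the filter on dim genes, the trended robust prior and the replicate block. The probe set of highest mean cannot change it for the 8 members with 1 probe set. With array weights Rarb was at 0.099 and Aldh1a1 at 0.38, and without CVX-060 rat 5 and vehicle rat 2 together Lrat was at -0.078 and Aldh1a1 at 0.30, all opposite in direction to the values with all rats. With Bmal1 as a covariate Aldh1a1 was at -0.44 and Lrat at 0.26, and with array weights Lrat was at 0.016, in the same direction as with all rats. The cause was not tested. With each rat left out in turn, the differences ranged from -0.048 to 0.28 for Lrat, -0.040 to 0.013 for Rbp4, 0.00152 to 0.08 for Rara, -0.16 to 0.093 for Rarb, 0.06 to 0.19 for Rarg, -0.15 to 0.056 for Rxra, -0.082 to 0.051 for Rxrb, -0.23 to 0.17 for Aldh1a1 and -0.24 to -0.05 for Dhrs3. The median of the members ranged from -0.05 to 0.06. Above the 99th percentile of background lay 5 of the 9 genes in all rats (Lrat, Rbp4, Rarb, Aldh1a1 and Dhrs3).

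No gene of the 14217 passed an adjusted p of 0.05 in limma under any alternative, nor did any pair of members in the 3 recomputations of the correlations. An unadjusted p under 0.05 was found for 347 genes with all rats, and for between 156 (filter on dim genes) and 816 (Bmal1 as a covariate) under the alternatives, with 557 when every probe set was tested, 686 with array weights, 713 without vehicle rat 2 and 581 without both rats that stood apart. The replicate numbers were shared by different rats, and same-numbered rats deviated from their groups with correlations of -0.17 to 0.15, so no pairing was assumed. With the number as a replicate block the count was 389, with the median of the members at -0.03, and no call changed. Background correction and scan batches could not be varied with these values, and 5 rats a group leave intervals as wide as those of Aldh1a1.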
